A study of Mus musculus with 16 samples.

Results

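The genes described here encode the proteins of the cytosolic ribosome. They were chosen by name, as protein-coding genes whose symbol is Rpl or Rps followed by a number and, for some, a closing letter or copy number, together with Rpsa, Rplp0, Rplp1 and Rplp2. Pseudogenes were left out. The rule names 84 mouse genes in RefSeq, of which 40 were measured by a probe set that names a single gene, out of 30142 genes measured in all. Another 37, among them Rps6, Rpl3, Rpl10, Rps27, Rplp1 and Rplp2, are named only by probe sets that list several genes, and the remaining 7 were not analysed here. The 40 genes comprise 24 of the large and 16 of the small subunit, including 6 paralogs (Rpl3l, Rpl7l1, Rpl10l, Rpl22l1, Rpl39l and Rps27l) that can stand in for a standard ribosomal protein or act beside it. The paralogs are those of a fixed list, which does not hold Rpl32l, a further copy on chromosome 10 that is counted with the other 34 genes.

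Total RNA of mouse liver was hybridised to 16 Affymetrix arrays, 4 in each of 4 groups. Ppara fl/fl mice, which carry the floxed allele and serve as wild type, and PparaΔHep mice, in which PPARα was disrupted in hepatocytes, each had either a partial hepatectomy (PHx) or a sham operation. PHx takes away a portion of the liver, and what remains grows back. Every group was sampled at 12 h. Age, sex and the driver of the recombinase are not given in the labels. Nor do they state whether an array stands for a separate animal, so each p-value reflects only the scatter among these arrays, some of which may be technical. The comparisons ask how the ribosomal protein mRNAs stand in the regrowing liver, and whether that depends on hepatocyte PPARα, a fatty acid receptor of the nucleus that drives fat oxidation. Arrays are named by group and by a number that pairs nothing across groups. Values are log2 levels, on which a difference of 1 is a doubling, and a gene was called when its adjusted p from limma was below 0.05.

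A cytosolic ribosome consists of a small subunit, which binds the mRNA and reads its codons, and a large subunit, which joins the amino acids. Each ribosomal protein is present as a single copy per ribosome, except those of the stalk, so their synthesis is kept in balance. Their mRNAs are abundant and stable, and most carry a run of pyrimidines at their 5′ end, called a 5′ TOP, through which mTOR signalling and LARP1 raise or hold back their translation. In growing cells and in regenerating liver ribosome output is known to be raised largely through rRNA synthesis and through translation of these mRNAs, neither of which an array of mRNA levels measures.

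Many of these genes have a run of pyrimidines near their annotated start. RefSeq promoters (GRCm38.p6) of full length were available for 64 of the 84 genes, 35 of them among the 40 measured. A gene was counted as holding a feature if any of its promoters held it. A run of at least 5 C or T bases that begins with a C within 10 bases of the annotated start was found in 62.5% of the 64 genes and in 65.7% of the 35 measured genes, against 34.9% of 17491 protein-coding genes and 44.9% of 69 mitochondrial ribosomal protein genes. The windows of 30 bases below, which run from 10 bases before the start to 20 bases from it, are of 6 genes whose levels changed after PHx and of Rpl35, whose run is the longest of those printed here. Capitals mark the run. Rps27l, Rpl22 and Rpl10a each have a further annotated start, whose window holds no run and is not printed.
Rpl38, chr11:114668570-114668599, plus strand: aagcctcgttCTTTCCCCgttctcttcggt
Rps27l, chr9:66946076-66946105, plus strand: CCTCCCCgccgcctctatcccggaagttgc
Rpl22, chr4:152324426-152324455, plus strand: CTTCTggaatgttccagctcccactgacag
Rpl39, chrX:37085203-37085232, minus strand: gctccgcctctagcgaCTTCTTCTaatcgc
Rpl10a, chr17:28328461-28328490, plus strand: gCCCCCCCagcggccgcaaactgcagcgcc
Rps9, chr7:3704031-3704060, plus strand: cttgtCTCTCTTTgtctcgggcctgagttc
Rpl35, chr2:39005112-39005141, minus strand: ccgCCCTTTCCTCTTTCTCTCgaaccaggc

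In Rpl38 the run begins at the annotated start itself, while in Rps27l and Rpl22 it begins 10 bases before it and in Rpl39 6 bases after it. The runs of Rps27l, Rpl22 and Rpl10a end before the annotated start and so lie outside the annotated mRNA. A run near the start is therefore not the same as a 5′ TOP, and whether these mRNAs carry one was not tested. Genes that rose and genes that fell both carry such a run. It was present in 8 of the 9 genes called after PHx in fl/fl livers that had a promoter in the table and in 15 of the 26 that were not called, a description without a test. The called gene without it was Rpl27, whose rise was the largest. Of the genes called in PparaΔHep livers, Rpl7l1 and Rps15 had no such run. Searched on both strands of the 250 bases before to 50 bases after the start, CTTCCG, which fits the ETS factor GABP, stood in 65.6% of the 64 ribosomal protein genes and in 23.5% of all protein-coding genes. GGGCGG, an SP motif, stood in 60.9% and 49.2%, TATAAA in 12.5% and 14.8%, and AAGATGGC, which fits YY1, in 9.38% and 3.57%. A match describes letters in these windows and does not show a bound site.

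The targeted gene, Ppara, ranged from 6.45 to 7.02 on the sham fl/fl arrays and from 6.05 to 6.43 on the sham PparaΔHep arrays, without overlap. After PHx it ranged from 5.68 to 7.24 in fl/fl and from 4.70 to 6.26 in PparaΔHep livers, which overlap. Neither difference between genotypes was called (adjusted p = 0.681 and 0.326, limma), and a probe set outside the deleted part would not report the deletion. The positive control probe sets of the array had a median of 5.95 ± 0.09 on sham and 5.59 ± 0.12 on PHx arrays (SD, n = 8 arrays each), while the negative controls stood at 1.94 ± 0.06 and 2.02 ± 0.07. The part of this shift in the differences below was not tested. The hepatocyte marker list had 3 lower and 0 higher of 11 measured genes after PHx in either genotype, and the Kupffer cell and macrophage list 5 lower of 12 in fl/fl and 9 lower of 12 in PparaΔHep livers. The mean level of that list ran from 5.14 to 5.69 and from 5.35 to 5.80 on the sham fl/fl and sham PparaΔHep arrays, and from 4.84 to 5.20 and from 4.82 to 5.23 on the PHx fl/fl and PHx PparaΔHep arrays, and that of the hepatocyte list from 10.4 to 10.6 on all arrays. In 9 further marker lists between 0 and 1 gene was higher. Lower in fl/fl and PparaΔHep livers were 4 and 6 of 10 sinusoidal endothelial and 4 and 4 of 10 stellate genes. The counts were 1 and 0 of 5 for cholangiocytes, 3 and 0 of 8 for T and NK and 2 and 0 of 4 for B cells. They were 1 and 0 of 8 for neutrophil, 3 and 2 of 3 for erythroid, 2 and 1 of 5 for muscle and 1 and 1 of 5 for germ line genes. Over all genes 11.9% were higher and 20.8% lower in fl/fl, and 14.8% and 17.5% in PparaΔHep livers. The part of these markers in the results was not tested. In whole liver, fewer cells of a type and less RNA per cell cannot be told apart.

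After PHx in fl/fl livers most ribosomal protein genes stayed near their sham level. Of the 40 genes, 3 were called higher and 7 lower, against 32.7% of all genes called (11.9% higher and 20.8% lower). Their differences spanned -0.50 (Rps27l) to 0.34 (Rpl27) with a median of -0.05, beside a median of -0.04 over all genes. The 95% interval of the difference lay within 1.5-fold either way for 39 of 40 genes, and for 81.0% of all genes. The PHx and sham arrays did not overlap for 4 genes that were higher and 8 that were lower (12.0% and 19.9% of all genes). Without the 6 paralogs, 3 of 34 were higher and 5 lower. Rpl32l was not called in either genotype (0.06 ± 0.08 in fl/fl and 0.03 ± 0.08 in PparaΔHep livers, SE). The large subunit had 2 higher and 5 lower of 24, and the small subunit 1 higher and 2 lower of 16. The arrays were also scaled in 4 other ways, by cyclic loess, by quantile normalization, by subtraction of each array's median (array-median scaling) and by subtraction of the median of the genes at level 8 or more (high-level scaling). The split turned under the last of these, to 19 higher and 2 lower, as did that of all genes (14551 higher and 1616 lower).

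**Figure D1:**
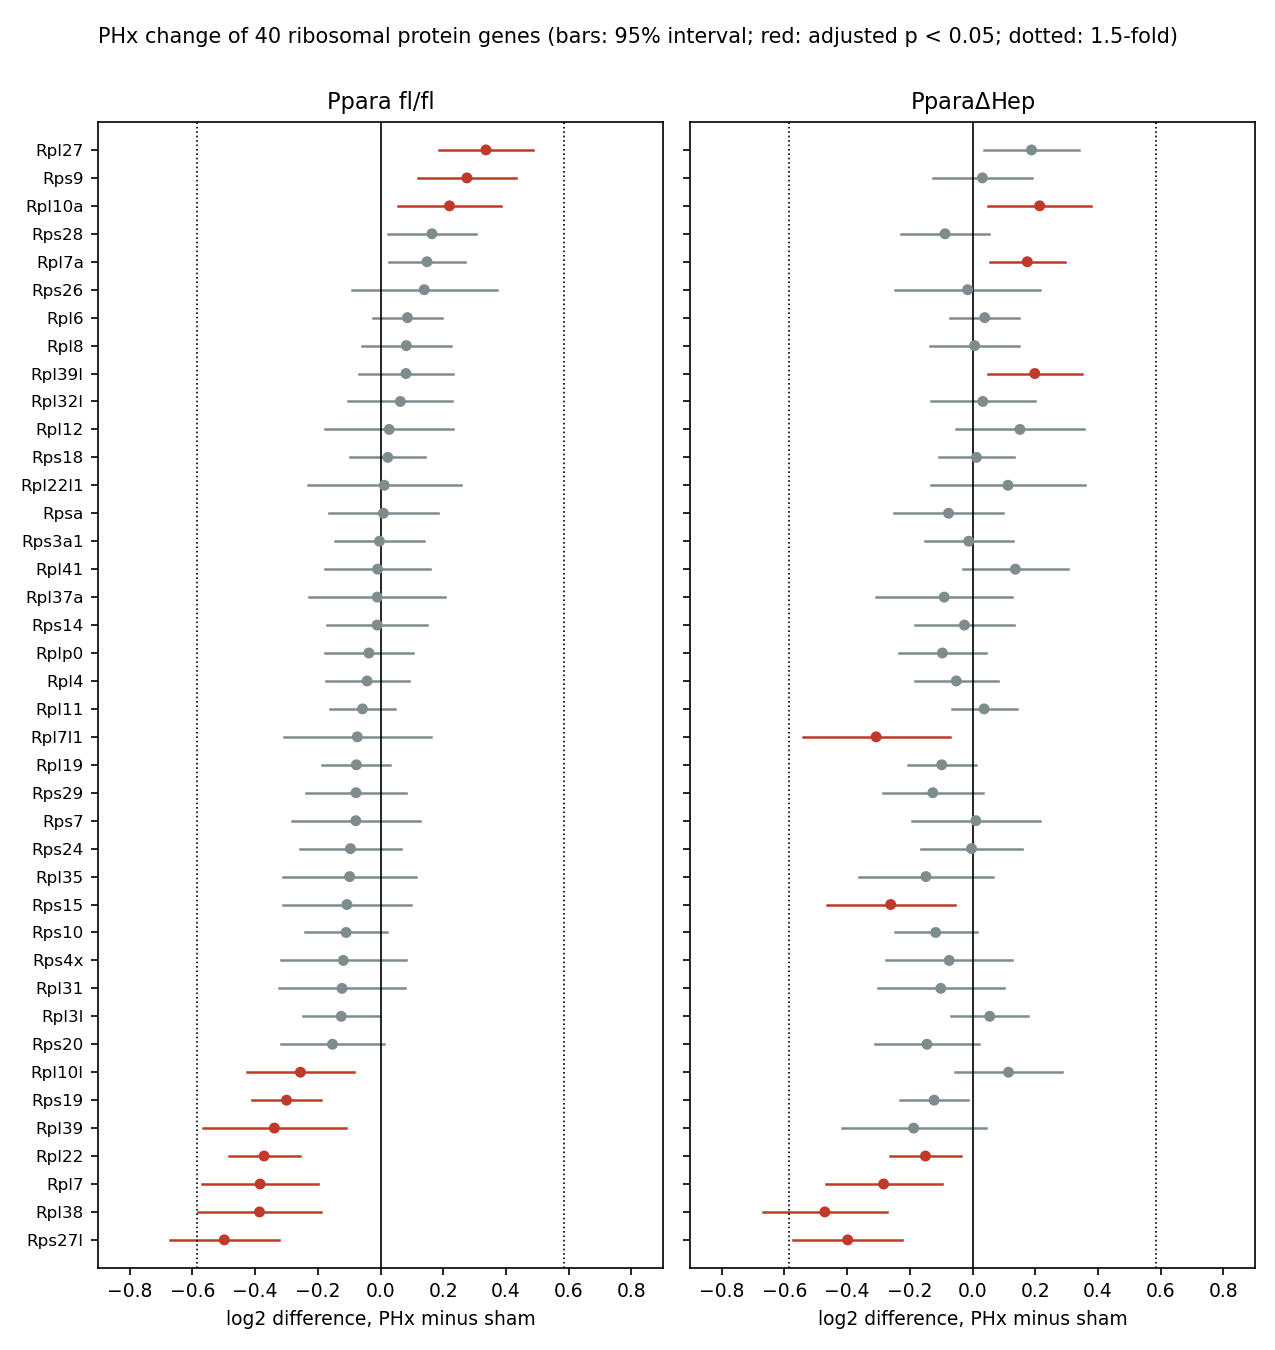
Log2 difference between PHx and sham for each of the 40 ribosomal protein genes in Ppara fl/fl (left) and PparaΔHep livers (right), with the 95% interval from limma (4 arrays per group), in the order of the fl/fl difference. Red marks adjusted p below 0.05 and dotted lines mark 1.5-fold. All 40 points lie within 1.5-fold in both panels, from -0.50 to 0.34 and from -0.47 to 0.21, with these signs holding on the deposited scaling.

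Rps27l, Rpl38, Rpl22 and Rpl7 were called lower in both genotypes. Rps27l encodes a near copy of the small subunit protein Rps27 and is known as a target of p53. Its level was 6.15, 6.18, 6.44 and 6.46 on the sham fl/fl arrays and 5.80, 5.72, 5.82 and 5.91 on the PHx fl/fl arrays. In PparaΔHep livers it was 6.12, 6.29, 6.25 and 6.21 after sham and 5.75, 6.00, 5.71 and 5.81 after PHx. Every PHx array lay below every sham array in both genotypes. The log2 difference was -0.50 ± 0.08 in fl/fl (SE; adjusted p = 0.000363, limma) and -0.40 ± 0.08 in PparaΔHep livers (adjusted p = 0.00180), and both passed under all 27 alternatives tried. Its 95% interval in fl/fl, from -0.67 to -0.33, was the only one of the 40 in that comparison that reached past 1.5-fold.

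Rpl38, a large subunit protein known for its part in the translation of Hox mRNAs, had levels of 7.83, 7.74, 7.96 and 7.58 after sham and 7.37, 7.39, 7.53 and 7.27 after PHx in fl/fl livers. In PparaΔHep livers the levels were 7.76, 7.90, 7.90 and 7.55 after sham and 7.30, 7.22, 7.44 and 7.26 after PHx. The groups again did not overlap in either genotype. The difference was -0.39 ± 0.09 in fl/fl (adjusted p = 0.00557, limma) and -0.47 ± 0.09 in PparaΔHep livers (adjusted p = 0.00134), where its interval of -0.67 to -0.27 was the only one past 1.5-fold. The PparaΔHep call held under all 27 alternatives. The fl/fl call held under 26 and was lost under high-level scaling (-0.16, adjusted p = 0.172).

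Rpl22 encodes a large subunit protein that binds RNA outside the ribosome too and is known for its role in T cell development. It stood at 5.02, 5.03, 5.20 and 5.08 after sham and at 4.75, 4.59, 4.76 and 4.75 after PHx in fl/fl livers. In PparaΔHep livers it stood at 4.89, 4.99, 4.94 and 4.92 after sham and at 4.75, 4.84, 4.83 and 4.73 after PHx. The PHx arrays were lower throughout in both genotypes, by a smaller margin in PparaΔHep livers. The difference was -0.37 ± 0.05 in fl/fl (adjusted p = 0.000117, limma; passed under all 27 alternatives) and -0.15 ± 0.05 in PparaΔHep livers (adjusted p = 0.0421). The PparaΔHep call was lost (adjusted p from 0.0516 to 0.116) without sham PparaΔHep array 2, 3 or 4, PHx PparaΔHep array 1, 3 or 4, or sham fl/fl array 4. It held under 15 of 27 alternatives, and the difference was -0.01 under cyclic loess (adjusted p = 0.856) and turned to 0.0089 under high-level scaling (adjusted p = 0.897). Lesser losses came with genes of a mean level of at least 4 only, with a trended and robust variance and with array weights (adjusted p from 0.0524 to 0.0746).

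Rpl7, a core large subunit protein, had levels of 5.08, 5.10, 5.21 and 5.18 after sham and 4.78, 4.60, 4.81 and 4.85 after PHx in fl/fl livers. In PparaΔHep livers the sham arrays read 5.11, 5.10, 5.07 and 5.08 and the PHx arrays 4.69, 5.11, 4.81 and 4.62. The groups were apart in fl/fl, whereas PHx PparaΔHep array 2 lay among the sham values. The difference was -0.38 ± 0.09 in fl/fl (adjusted p = 0.00386, limma) and -0.28 ± 0.09 in PparaΔHep livers (adjusted p = 0.0210), the latter lost without PHx PparaΔHep array 1 (-0.24, adjusted p = 0.0590) or array 4 (-0.22, adjusted p = 0.0743). That call held under 22 of 27 alternatives. It was lost too under cyclic loess (-0.14, adjusted p = 0.197), under high-level scaling (-0.12, adjusted p = 0.234) and with only the groups compared in the fit (adjusted p = 0.0637). The fl/fl call was lost under high-level scaling alone (-0.16, adjusted p = 0.133).

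The remaining calls of a fall were made in a single genotype. Rpl39 encodes a very small protein that lines the tunnel through which the new peptide leaves. Its level in fl/fl livers was 6.78, 6.61, 7.07 and 6.81 after sham and 6.62, 6.30, 6.49 and 6.49 after PHx, so that the ranges overlapped only at their edge. The difference was -0.34 ± 0.11 (SE; adjusted p = 0.0255, limma), a call lost without sham fl/fl array 3 (-0.25, adjusted p = 0.0884) or PHx fl/fl array 2 (-0.28, adjusted p = 0.0804), and under cyclic loess (-0.20, adjusted p = 0.132) or high-level scaling (-0.11, adjusted p = 0.325). In PparaΔHep livers the difference was -0.19 ± 0.11 (adjusted p = 0.200), and it passed without PHx PparaΔHep array 2 (-0.29, adjusted p = 0.0304), under quantile normalization (-0.28, adjusted p = 0.0418) and under array-median scaling (-0.34, adjusted p = 0.0207).

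Rps19, the gene most often mutated in Diamond-Blackfan anaemia, read 4.37, 4.27, 4.38 and 4.29 after sham and 4.07, 3.97, 4.004 and 4.06 after PHx in fl/fl livers. These groups did not overlap, and the difference was -0.30 ± 0.05 (adjusted p = 0.000528, limma). That call was lost under high-level scaling (-0.08, adjusted p = 0.265). In PparaΔHep livers it was -0.12 ± 0.05 (adjusted p = 0.0813), passed under quantile normalization (-0.22) and array-median scaling (-0.27), and turned to 0.04 under high-level scaling. The seventh fall in fl/fl livers was that of Rpl10l, described with the paralogs.

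Rps15, a small subunit protein near the decoding site, was called lower in PparaΔHep livers alone. Its levels there were 6.55, 6.64, 6.85 and 6.68 after sham and 6.48, 6.34, 6.56 and 6.29 after PHx, with a single PHx array, number 3, inside the sham range. The difference was -0.26 ± 0.10 (adjusted p = 0.0488, limma), beside -0.11 ± 0.10 in fl/fl livers (adjusted p = 0.415). The call was lost (adjusted p from 0.0539 to 0.148) without sham PparaΔHep array 2, 3 or 4, PHx PparaΔHep array 1, 2 or 4, or, among fl/fl arrays, sham 1, 3 or 4 or PHx 1 or 2. It held under 12 of 27 alternatives. The difference was -0.10 under cyclic loess (adjusted p = 0.450) and under high-level scaling (adjusted p = 0.383), and the call was also lost with a trended and robust variance (adjusted p = 0.0623) or array weights (adjusted p = 0.0702).

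On the deposited scaling rises were fewer and smaller than falls. All genes also had fewer rises, 11.9% against 20.8% in fl/fl and 14.8% against 17.5% in PparaΔHep livers. Under cyclic loess rises of the 40 genes outnumbered falls, with 7 and 6 in fl/fl and 5 and 2 in PparaΔHep livers. High-level scaling gave 19 and 2, and 13 and 2. Rpl27, a large subunit protein, read 7.24, 7.03, 7.11 and 7.19 after sham and 7.55, 7.49, 7.41 and 7.47 after PHx in fl/fl livers, without overlap. It rose by 0.34 ± 0.07 (SE; adjusted p = 0.00248, limma), a call lost under quantile normalization (0.14, adjusted p = 0.0928). The sham arrays of PparaΔHep livers read 6.99, 6.99, 7.29 and 7.25 and the PHx arrays 7.36, 7.33, 7.34 and 7.23, which overlap. The difference there was 0.19 ± 0.07 (adjusted p = 0.0544), and it passed without sham PparaΔHep array 3 (0.24, adjusted p = 0.0222) or array 4 (0.23, adjusted p = 0.0330), and under 6 of the other alternatives. This probe set lies on another chromosome than the Rpl27 gene, as do those of 5 other genes of the 40 (Rpl31, Rpl7a, Rpl35, Rpl12 and Rpl41). The probe set on the gene's own chromosome, 11, rose too, by 0.22 ± 0.06 in fl/fl (adjusted p = 0.0134 over all probe sets, limma) and by 0.17 ± 0.06 in PparaΔHep livers (adjusted p = 0.0453).

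Rps9, a small subunit protein that helps form the mRNA channel, stood at 4.66, 4.61, 4.65 and 4.53 after sham and at 4.92, 4.77, 5.07 and 4.80 after PHx in fl/fl livers. The groups did not overlap, and the rise was 0.28 ± 0.07 (adjusted p = 0.0107, limma), lost under array-median scaling (0.17, adjusted p = 0.0641). In PparaΔHep livers the levels of 4.58, 4.70, 4.80 and 4.65 after sham and 4.55, 4.79, 4.80 and 4.71 after PHx lay over each other, and the difference was 0.03 ± 0.07 (adjusted p = 0.784). The test of the difference between those changes gave -0.24 ± 0.10 with adjusted p = 0.409.

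Rpl10a, a protein of the mobile L1 stalk of the large subunit, was called higher in both genotypes. Its levels in fl/fl livers were 6.74, 6.59, 6.66 and 6.69 after sham and 7.03, 6.77, 7.003 and 6.75 after PHx. In PparaΔHep livers they were 6.60, 6.58, 6.73 and 6.71 after sham and 6.82, 6.79, 7.07 and 6.80 after PHx. Every PHx array was above every sham array in both genotypes. The difference was 0.22 ± 0.08 in fl/fl (adjusted p = 0.0407, limma) and 0.21 ± 0.08 in PparaΔHep livers (adjusted p = 0.0462), close to the threshold. The fl/fl call was lost (adjusted p from 0.0666 to 0.121) without sham fl/fl array 2, 3 or 4, and likewise without array 1 or 3 of the PHx fl/fl group. The PparaΔHep call was lost (adjusted p from 0.0510 to 0.148) without any of the 8 sham arrays or PHx PparaΔHep array 1, 3 or 4. The calls held under 18 and 12 of 27 alternatives. Quantile normalization left 0.05 in fl/fl (adjusted p = 0.630) and 0.09 in PparaΔHep livers (adjusted p = 0.347), and array-median scaling left 0.11 (adjusted p = 0.247) and 0.06 (adjusted p = 0.513). Both calls were also lost with a trended and robust variance and with only the groups compared in the fit (adjusted p from 0.0607 to 0.0694).

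Rpl7a, a large subunit protein, was measured by 2 probe sets that did not move alike. The brighter, on chromosome 9, read 7.04, 7.08, 7.15 and 7.18 after sham and 7.25, 7.35, 7.28 and 7.27 after PHx in PparaΔHep livers, without overlap. Its difference was 0.17 ± 0.06 (adjusted p = 0.0275, limma), lost without sham PparaΔHep array 1 (adjusted p = 0.0794) or 2 (adjusted p = 0.0649) or PHx PparaΔHep array 2 (adjusted p = 0.0698). In fl/fl livers it was 0.15 ± 0.06 (adjusted p = 0.0560), and it passed without sham fl/fl array 1 (0.18, adjusted p = 0.0397). Quantile normalization turned both differences, to -0.01 in PparaΔHep and -0.06 in fl/fl livers, and array-median scaling left 0.02 in PparaΔHep livers (adjusted p = 0.732). The PparaΔHep call was also lost with a trended and robust variance (adjusted p = 0.0646) or the mean of both probe sets (0.08, adjusted p = 0.268), and the fl/fl difference passed under cyclic loess (0.27) and high-level scaling (0.37). The probe set on the chromosome of the gene, 2, gave -0.01 ± 0.06 in PparaΔHep and -0.03 ± 0.06 in fl/fl livers. The rise is a value of the chromosome 9 probe set only.

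**Figure D2:**
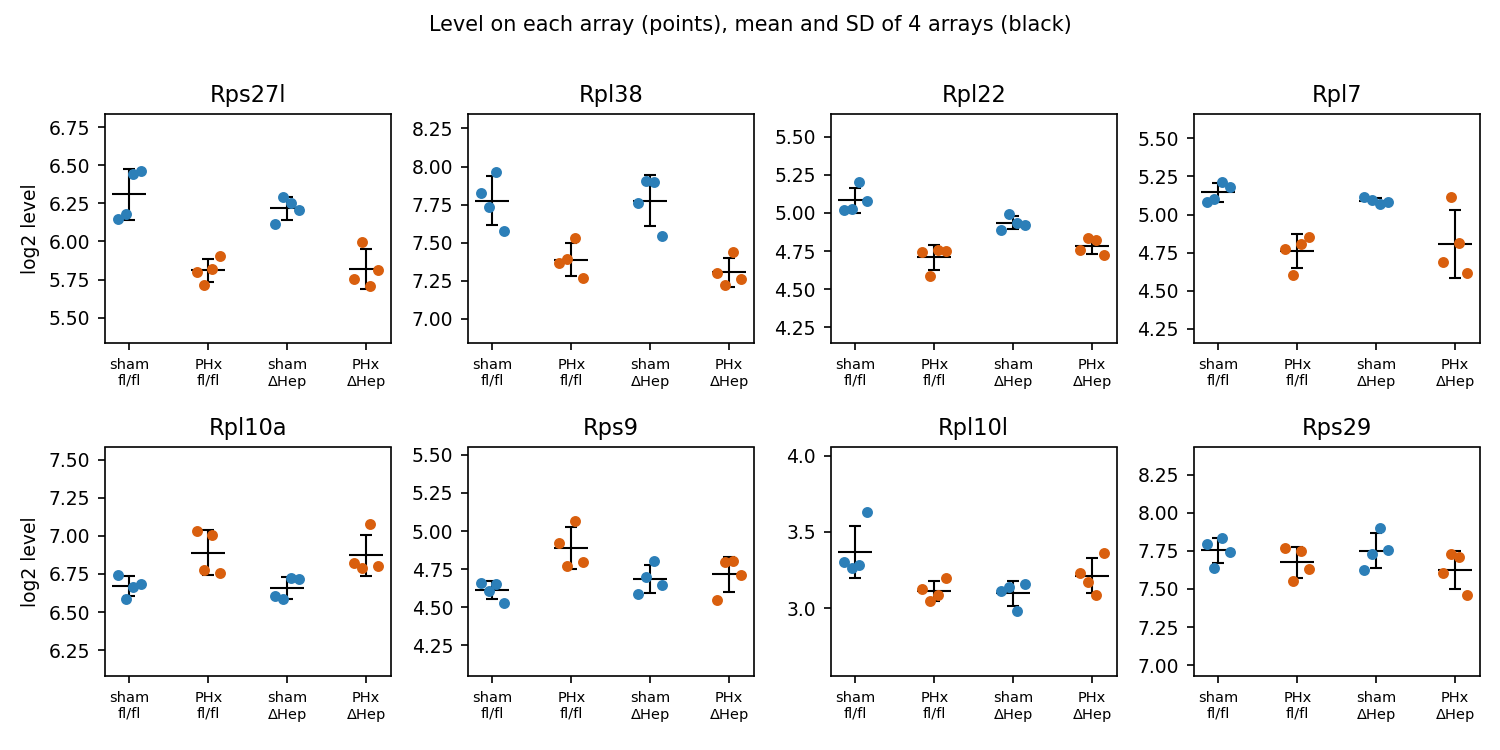
Log2 level on each of the 16 arrays for 8 ribosomal protein genes, with sham arrays in blue, PHx arrays in orange and the mean ± SD of the 4 arrays of a group in black. Every panel spans the same number of log2 units. Rps27l, Rpl38 and Rpl22 lie lower after PHx and Rpl10a higher after PHx without overlap in both genotypes, whereas the Rps29 groups overlap.

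In PparaΔHep livers as a whole, 3 of the 40 genes were called higher after PHx (Rpl10a, Rpl39l and Rpl7a) and 6 lower (Rpl38, Rps27l, Rpl7l1, Rpl7, Rps15 and Rpl22), against 32.3% of all genes (14.8% higher and 17.5% lower). The differences ran from -0.47 to 0.21 with a median of -0.04, beside 0.01 over all genes. The interval lay within 1.5-fold for 39 of 40 genes and for 79.8% of all genes. The groups did not overlap for 3 genes that were higher and 4 that were lower (15.8% and 16.2% of all genes). Over the omission of each array in turn, the counts ran from 0 to 3 higher and from 2 to 8 lower. None was left higher without sham PparaΔHep array 1 or 2, 1 was left without sham fl/fl array 2 or 4 or without any single PHx PparaΔHep array, 3 were left lower without sham PparaΔHep array 2, 3 or 4, sham fl/fl array 4 or PHx PparaΔHep array 1, and 2 without PHx PparaΔHep array 4. In fl/fl livers the counts ran only from 2 to 4 higher and from 5 to 7 lower.

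Several members that are often used as references or have further roles did not pass in either genotype on the deposited scaling. Rplp0, the base of the large subunit's stalk, read 7.95, 7.72, 7.84 and 7.76 after sham and 7.85, 7.70, 7.87 and 7.70 after PHx in fl/fl livers, and the difference was -0.04 with a 95% interval of -0.18 to 0.10. In PparaΔHep livers it was -0.10 (-0.24 to 0.04). Rpsa, a small subunit protein first known as a precursor of the laminin receptor, differed by 0.01 (-0.17 to 0.18) in fl/fl and by -0.08 (-0.25 to 0.10) in PparaΔHep livers. Rps4x, whose gene lies on the X chromosome, differed by -0.12 (-0.32 to 0.08) and -0.07 (-0.27 to 0.13). Their groups overlapped, and each interval stayed inside 1.5-fold, which is log2 0.58 either way. Other scalings called Rplp0 and Rpsa in opposite directions. Quantile normalization called Rplp0 lower in fl/fl and PparaΔHep livers (-0.26 and -0.33, adjusted p = 0.00636 and 0.00185, limma). It called Rpsa lower as well (-0.20 and -0.25, adjusted p = 0.046 and 0.0215). Array-median scaling called both lower in PparaΔHep livers (-0.25 and -0.23). High-level scaling called both higher in fl/fl livers (0.19 and 0.23, adjusted p = 0.0416 and 0.0243). Rps4x was called under no alternative. A missed threshold does not show that a level was the same.

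The paralogs did not move as a block. In fl/fl livers 2 of 6 were called lower and 0 higher, and in PparaΔHep livers 2 lower and 1 higher. Over all genes 20.8% were lower and 11.9% higher in fl/fl, and 17.5% and 14.8% in PparaΔHep livers. Rpl10l, a retrogene copy of Rpl10 known from testis, read 3.30, 3.26, 3.28 and 3.63 after sham and 3.12, 3.04, 3.08 and 3.20 after PHx in fl/fl livers. In PparaΔHep livers it read 3.11, 3.14, 2.98 and 3.16 after sham and 3.23, 3.17, 3.09 and 3.36 after PHx. The fl/fl groups were apart, with sham fl/fl array 4 well above the rest, and the PparaΔHep groups overlapped. The difference was -0.26 ± 0.08 in fl/fl (adjusted p = 0.0237, limma) and 0.11 ± 0.08 in PparaΔHep livers (adjusted p = 0.296). The fl/fl call was lost without sham fl/fl array 4 (-0.17, adjusted p = 0.0663) or PHx fl/fl array 2 (-0.23, adjusted p = 0.0641) or 3 (-0.25, adjusted p = 0.0512). It was lost too under cyclic loess (-0.20, adjusted p = 0.0726), under high-level scaling (-0.03, adjusted p = 0.760) and with only the groups compared in the fit (adjusted p = 0.0523), so that it held under 20 of 26 alternatives. The PparaΔHep difference passed under high-level scaling (0.27, adjusted p = 0.0120) and turned under quantile normalization (-0.07) and array-median scaling (-0.04).

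Rpl7l1, a relative of Rpl7 found in ribosome precursors, read 6.31, 6.32, 6.35 and 6.52 after sham and 6.25, 6.16, 6.19 and 5.66 after PHx in PparaΔHep livers, with all PHx arrays lower and array 4 far below the rest. It fell by 0.31 ± 0.11 there (adjusted p = 0.0439, limma), and by 0.17 without that array (adjusted p = 0.113). The call was also lost (adjusted p from 0.0502 to 0.120) without any single sham PparaΔHep array, or, among fl/fl arrays, sham 1, 2 or 4 or PHx 3 or 4. It held under 12 of 27 alternatives, with -0.14 under cyclic loess (adjusted p = 0.300), -0.15 under high-level scaling (adjusted p = 0.289) and adjusted p from 0.0521 to 0.106 under the 3 changes of the variance model or of the groups fitted. In fl/fl livers the difference was -0.07 ± 0.11 (adjusted p = 0.637). Rpl22l1, the paralog that Rpl22 is known to hold down, differed by 0.01 ± 0.11 in fl/fl and by 0.11 ± 0.11 in PparaΔHep livers and passed in neither (adjusted p = 0.950 and 0.488).

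Rpl39l, the testis-enriched paralog of Rpl39, and Rpl3l, the paralog of Rpl3 known from heart and skeletal muscle, were dim. Rpl39l lay between 1.67 and 2.09 and Rpl3l between 1.91 and 2.30 over the 16 arrays, at or near the medians of the negative controls (1.94 after sham and 2.02 after PHx). Rpl39l was called higher in PparaΔHep livers (adjusted p = 0.0413, limma), from 1.77, 1.80, 1.93 and 1.67 after sham to 2.02, 2.03, 1.95 and 1.97 after PHx. These groups did not overlap, and the call was lost (adjusted p from 0.0503 to 0.124) without sham PparaΔHep array 1, 2 or 4, sham fl/fl array 2 or 4, or any single PHx PparaΔHep array. It was also lost under cyclic loess, quantile normalization and array-median scaling (adjusted p from 0.281 to 0.586). No fold is given, since both groups lie at the level of the negative controls. Rpl3l passed in neither genotype.

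Standard gene and paralog were compared within arrays, as the log2 level of the first minus that of the second. For Rpl22 minus Rpl22l1 this difference shifted by -0.38 after PHx in fl/fl and by -0.26 in PparaΔHep livers, with all PHx arrays below all sham arrays. For Rpl7 minus Rpl7l1 it shifted by -0.31 in fl/fl livers, without overlap, and by 0.02 in PparaΔHep livers, where the groups overlapped. The exact two-sided permutation p was 0.0286 for each of the 3 shifts without overlap, the smallest that 4 against 4 arrays allow (0.0381 adjusted over 4 tests), and 0.857 for the last. The shifts show unequal change of the pair and do not show which of them moved. Rpl39 was not set against Rpl39l, which was not above the negative controls.

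Between the genotypes no ribosomal protein gene was called. After sham the count was 0 of 40 (0.0133% of all genes called, 0.00332% higher and 0.00995% lower), with 5 at an unadjusted p below 0.05, and the differences ran from -0.27 to 0.16. After PHx it was 0 of 40 (0.143% of all genes, 0.00% higher and 0.143% lower), with 3 at an unadjusted p below 0.05, and the differences ran from -0.24 to 0.10. For the difference between the PHx changes it was 0 of 40 (0.00% of all genes), with 6 at an unadjusted p below 0.05, in limma throughout. The genotypes did not overlap for 0 genes that were higher and 2 that were lower in PparaΔHep livers after sham (2.38% and 4.43% of all genes), and for 0 and 1 after PHx (2.41% and 1.31%). The 95% interval lay within 1.5-fold for 40, 40 and 39 of the 40 genes, against 95.2%, 94.6% and 85.7% of all genes.

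The genes with the smallest p in these comparisons were small in size. After sham, Rpl10l was lower in PparaΔHep than in fl/fl livers by a log2 difference of -0.27 ± 0.08 (adjusted p = 0.403, limma), Rpl22 by -0.15 ± 0.05 (adjusted p = 0.455) and Rps19 by -0.13 ± 0.05 (adjusted p = 0.486). After PHx, Rps9 differed by -0.17 ± 0.07, Rpl27 by -0.16 ± 0.07 and Rpl7l1 by -0.24 ± 0.11, with adjusted p from 0.631 to 0.661. The PHx change of Rpl10l differed between genotypes by 0.37 ± 0.11 (PparaΔHep minus fl/fl; adjusted p = 0.327), that of Rpl22 by 0.22 ± 0.08 (adjusted p = 0.350) and that of Rps28 by -0.25 ± 0.09 (adjusted p = 0.364). Rps28, a small subunit protein at the mRNA exit, read 3.84, 3.76, 3.75 and 3.73 after sham and 3.96, 3.83, 4.05 and 3.90 after PHx in fl/fl livers, and 3.81, 3.86, 3.92 and 4.13 after sham and 3.87, 3.85, 3.87 and 3.78 after PHx in PparaΔHep livers. Its groups overlapped in both genotypes.

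Around these small differences, the genes varied together from array to array. After the group means were taken off, the median Pearson correlation between pairs of the 40 genes over the 16 arrays was 0.37, against 0.06 between protein-coding genes with a mean level of at least 5. This is a description, since genes of an array share its RNA, labelling and scaling. Against the mean of the other members at that level, Rps29, a zinc-binding small subunit protein, correlated at 0.96, Rpl35 at 0.90 and Rpsa at 0.87. The lowest values were those of Rpl10l (-0.40) and Rpl3l (-0.10). Rps29 read 7.79, 7.64, 7.84 and 7.74 after sham and 7.77, 7.55, 7.75 and 7.63 after PHx in fl/fl livers, and 7.62, 7.73, 7.90 and 7.75 after sham and 7.60, 7.73, 7.71 and 7.46 after PHx in PparaΔHep livers. The shared deviation of the 24 genes with a mean level of at least 5 was lowest on PHx PparaΔHep array 4, at -0.13, and highest on PHx PparaΔHep array 2, at 0.10. The median SD of the 40 genes within a group ran from 0.09 to 0.12.

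**Figure D3:**
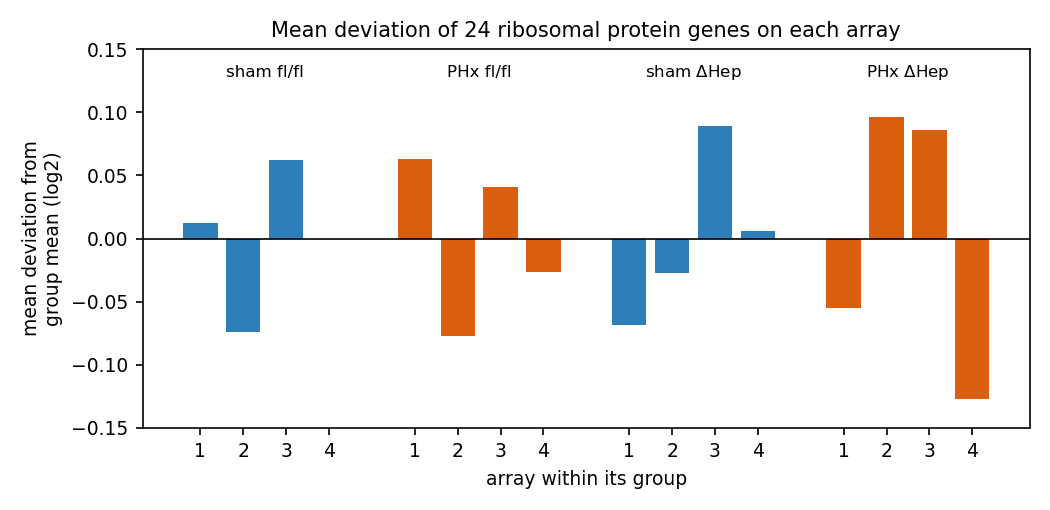
Mean deviation of 24 ribosomal protein genes (mean level of at least 5) from their group means on each of the 16 arrays, in log2 units, with sham arrays in blue and PHx arrays in orange. The bars run from -0.13 on PHx PparaΔHep array 4 to 0.10 on PHx PparaΔHep array 2, and each group sums to 0 by construction.

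The counts can be set beside those of other well expressed genes. Of the 24 ribosomal protein genes with a mean level of at least 5, 2 were higher and 3 lower after PHx in fl/fl livers (median -0.04), and 2 higher and 4 lower in PparaΔHep livers (median -0.08). Among 3864 protein-coding genes at that level, 242 were higher and 1406 lower in fl/fl (median -0.18), and 157 higher and 1870 lower in PparaΔHep livers (median -0.27). The 52 probe sets that name several genes, 39 ribosomal protein genes among them, had 4 higher and 7 lower in fl/fl livers (median -0.02) and 1 higher and 5 lower in PparaΔHep livers (median -0.04). Over all 72688 probe sets 14.4% were higher and 11.2% lower in fl/fl, and 15.7% and 9.87% in PparaΔHep livers. Of 206 measured ribosomal protein pseudogenes, whose sequence resembles the members', 9 were higher and 50 lower in fl/fl (median -0.09), and 7 higher and 25 lower in PparaΔHep livers (median -0.03). These pseudogenes are among the 30142 genes, of which 11.9% were higher and 20.8% lower in fl/fl livers. In PparaΔHep livers the shares of all genes were 14.8% and 17.5%.

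The proteins of the mitochondrial ribosome form a separate family, which translates the few mRNAs of mitochondrial DNA. Of its 75 measured genes 1 was called higher and 36 lower in fl/fl livers, with a median of -0.19, and 0 higher and 49 lower in PparaΔHep livers, with a median of -0.27. Over all genes 11.9% were called higher and 20.8% lower in fl/fl, and 14.8% and 17.5% in PparaΔHep livers. The counts moved with the scaling, as did those of all genes, which are given with the scalings below. For fl/fl livers they became 3 higher and 14 lower under cyclic loess, 1 and 59 under quantile normalization, 0 and 60 under array-median scaling and 10 and 3 under high-level scaling. For PparaΔHep livers they became 4 and 24, 0 and 61, 0 and 69, and 6 and 18 in the same order. The sign of these medians was negative under every scaling tried, except for fl/fl livers at 0.03 under high-level scaling. Mrpl14 had -0.43 ± 0.05 in fl/fl (adjusted p = 8.71e-06, limma) and -0.34 ± 0.05 in PparaΔHep livers (adjusted p = 8.22e-05), and it passed as lower under each scaling in both genotypes.

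Genes that serve the cytosolic ribosome differed among themselves. In the list of ribosome biogenesis, 4 of 43 measured genes were called higher and 1 lower in fl/fl (median 0.22), and 7 higher and 2 lower in PparaΔHep livers (median 0.17), against the same shares of all genes. The split turned with the scaling, and that of all genes under each scaling is given below. It was 16 higher and 0 lower in fl/fl livers under cyclic loess and 31 and 0 under high-level scaling, but 4 and 4 under quantile normalization and 3 and 6 under array-median scaling. In PparaΔHep livers it was 15 and 1, 21 and 1, 4 and 2, and 2 and 7 in that order. Eif6, which keeps the subunits apart until assembly is complete, rose by 0.60 ± 0.14 in fl/fl livers (adjusted p = 0.00592), and Nop2, an rRNA methyltransferase, by 0.56 ± 0.16 (adjusted p = 0.0144). Nop58, a core protein of the snoRNPs that methylate rRNA, rose by 1.04 ± 0.29 in PparaΔHep livers (adjusted p = 0.0132), whereas Bop1, a factor of large subunit assembly, fell by 0.30 and 0.44 in fl/fl and PparaΔHep livers (adjusted p = 0.00574 and 0.000402). Eif6 and Nop2 in fl/fl and Nop58 and Bop1 in PparaΔHep livers passed in these directions under each scaling. The fl/fl call of Bop1 was lost under cyclic loess (-0.18, adjusted p = 0.0710) and high-level scaling (-0.08, adjusted p = 0.420). In the other genotype Eif6 was called in PparaΔHep livers (0.40, adjusted p = 0.0439), Nop58 was not called in fl/fl livers (0.72, adjusted p = 0.0706) and Nop2 not in PparaΔHep livers (0.12, adjusted p = 0.606). That Eif6 call was lost under quantile normalization (0.34, adjusted p = 0.0687, limma) and array-median scaling (0.25, adjusted p = 0.149). Nop58 passed in fl/fl livers under cyclic loess (0.86, adjusted p = 0.0413) and high-level scaling (0.94, adjusted p = 0.0150). The medians of this list stayed above 0 under the 5 scalings in both genotypes, from 0.02 to 0.44.

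A further list holds elongation and initiation factors and other 5′ TOP mRNA genes. Whether each of its mRNAs carries a 5′ TOP was not tested. Over all genes 11.9% were higher and 20.8% lower in fl/fl, and 14.8% and 17.5% in PparaΔHep livers. For this list and those after it, the counts of all genes under each scaling are given below. Of its 29 measured genes, 2 were higher and 2 lower in fl/fl (median -0.01), and 1 higher and 6 lower in PparaΔHep livers (median -0.07). These counts became 5 and 0 in fl/fl livers under cyclic loess, 0 and 13 under quantile normalization, 0 and 10 under array-median scaling and 14 and 0 under high-level scaling, with medians from -0.18 to 0.21. In PparaΔHep livers they became 3 and 2, 0 and 15, 1 and 17, and 5 and 2, with medians from -0.22 to 0.09. The helicase gene Eif4a1 rose by 0.37 ± 0.11 and 0.44 ± 0.11 (adjusted p = 0.0224 and 0.00764), while Eif3k, an initiation factor subunit, fell by 0.28 and 0.45 (adjusted p = 0.0293 and 0.00182). Quantile normalization ended both calls of Eif4a1 (adjusted p = 0.263 and 0.0710) and array-median scaling that in fl/fl (adjusted p = 0.0565). Cyclic loess and high-level scaling ended the fl/fl call of Eif3k (-0.15 and -0.06).

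For this list and the next, the shares of all genes were 11.9% higher and 20.8% lower in fl/fl, and 14.8% and 17.5% in PparaΔHep livers. Of 14 genes of RNA polymerase I and its factors, 2 were higher and 2 lower in fl/fl, and 0 higher and 3 lower in PparaΔHep livers. Under the other scalings the counts ran from 0 to 5 higher and from 1 to 4 lower in fl/fl, and from 0 to 4 higher and from 1 to 4 lower in PparaΔHep livers. Ubtf, the factor that opens the rRNA genes, had -0.46 ± 0.07 in fl/fl (adjusted p = 0.000147) and -0.50 ± 0.07 in PparaΔHep livers (adjusted p = 5.05e-05), and passed under each scaling. Polr1e and Taf1b were the higher ones in fl/fl livers, at 0.31 ± 0.11 and 0.29 ± 0.10 (adjusted p = 0.033 and 0.0389, limma). Both calls were lost under quantile normalization and array-median scaling. In PparaΔHep livers neither was called (0.26 and 0.13, adjusted p = 0.0707 and 0.342), except under high-level scaling. Of 20 genes of mTOR control, 1 was higher and 9 lower in fl/fl (median -0.20), and 1 higher and 12 lower in PparaΔHep livers (median -0.28). High-level scaling turned the fl/fl split to 6 higher and 3 lower (median 0.03) and left 3 higher and 6 lower in PparaΔHep livers (median -0.12). Under the 3 other scalings lower calls outnumbered higher ones, with 6 to 12 lower against 1 or 2 higher in fl/fl and 9 to 14 lower against 1 to 3 higher in PparaΔHep livers. Larp1, whose product binds 5′ TOP mRNAs, fell by 0.42 and 0.68 (adjusted p = 0.000407 and 2.73e-06), and Pdcd4, an inhibitor of the helicase Eif4a1, by 0.85 and 0.75 (adjusted p = 0.000139 and 0.000336). Of these calls high-level scaling ended that of Larp1 in fl/fl livers (-0.19, adjusted p = 0.0586), and the other 3 held under each scaling. Mknk2, the only gene of this list called higher on the deposited scaling, rose by 0.61 and 0.64 (adjusted p = 0.0164 and 0.0118, limma). It passed as higher under each scaling in both genotypes. Fau, which encodes a small subunit protein fused to a ubiquitin-like part, rose by 0.23 ± 0.07 in fl/fl livers (adjusted p = 0.0148) and was not called in PparaΔHep livers (0.10, adjusted p = 0.281). The fl/fl difference was uncalled at 0.13 under array-median scaling and turned to -0.03 under quantile normalization. The PparaΔHep difference turned under both (-0.05 and -0.14) and passed under high-level scaling (0.26).

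**Figure D4:**
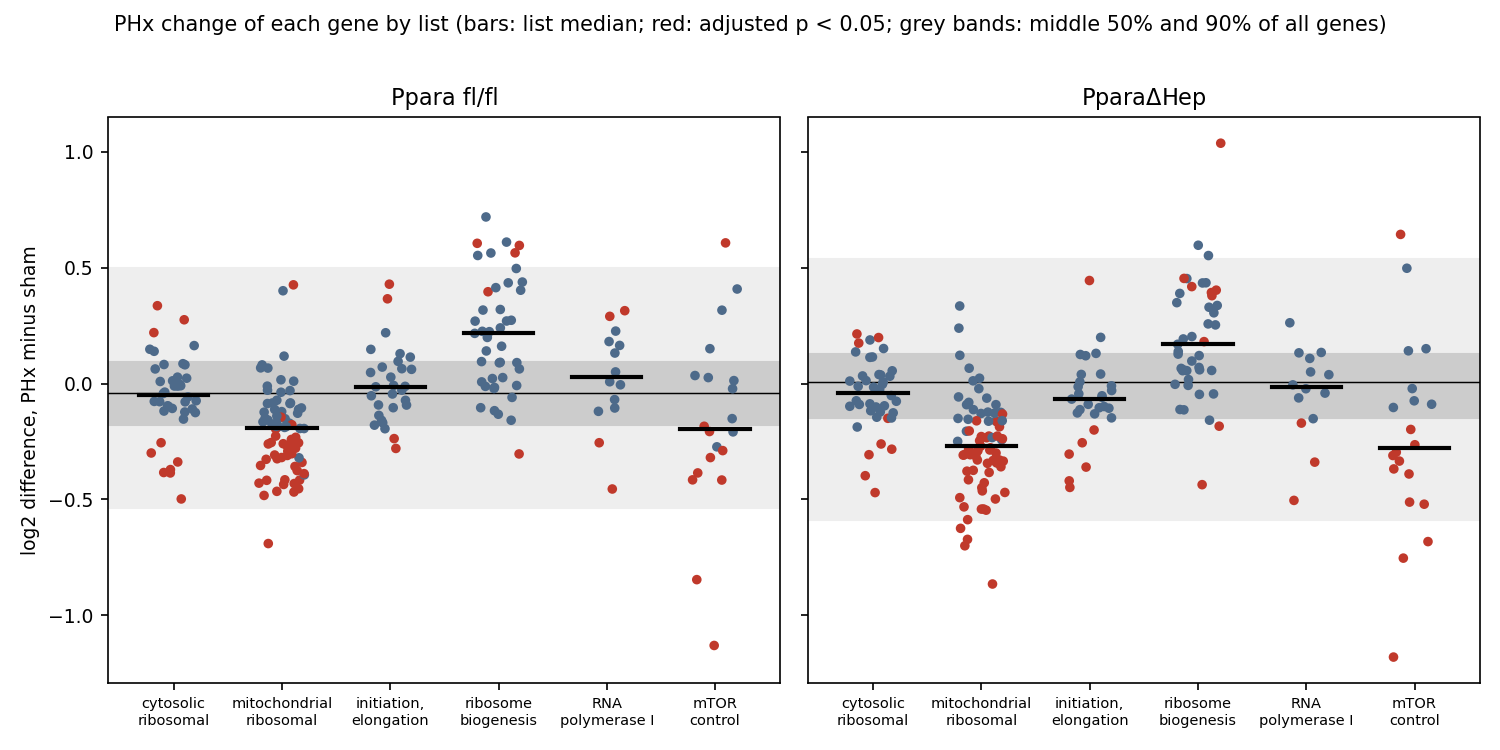
Log2 difference between PHx and sham for each gene of 6 lists in Ppara fl/fl (left) and PparaΔHep livers (right), with the list median as a bar, genes of adjusted p below 0.05 in red, and grey bands for the middle 50% and 90% of all 30142 genes. On the deposited scaling the cytosolic ribosomal protein genes have medians of -0.05 and -0.04, the mitochondrial ones of -0.19 and -0.27 and the biogenesis genes of 0.22 and 0.17. The first of these medians turn positive under cyclic loess and under subtraction of the median of genes at level 8 or more, the latter of which also turns the mitochondrial median in fl/fl livers.

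How many ribosomal protein genes count as higher or lower depended on how the arrays were scaled to each other. In fl/fl livers the split of 3 higher and 7 lower became 7 and 6 after cyclic loess, 1 and 22 after quantile normalization, 1 and 13 after subtraction of each array's median, and 19 and 2 after subtraction of the median of the genes at level 8 or more. In PparaΔHep livers the split of 3 and 6 became 5 and 2, 0 and 18, 0 and 18, and 13 and 2. The split of all 30142 genes moved too. In fl/fl livers 3597 higher and 6271 lower became 3576 and 5007, 2436 and 12964, 2286 and 13134, and 14551 and 1616. In PparaΔHep livers 4461 and 5273 became 3682 and 4454, 2587 and 10514, 2139 and 13211, and 13619 and 2606. The median of all genes moved with these counts, to -0.04, -0.14, -0.15 and 0.18 in fl/fl and to -0.02, -0.10, -0.14 and 0.17 in PparaΔHep livers. Relative to all genes, the median of the ribosomal protein genes lay between -0.07 and 0.08 under the 5 scalings. Array-median and high-level scaling subtract a constant from each array and so cannot change this value. It was -0.01 in fl/fl and -0.05 in PparaΔHep livers on the deposited scaling and under both. Cyclic loess gave 0.075 and 0.078, and quantile normalization -0.05 and -0.07. At most 2 of the 40 genes differed by more than 1.5-fold under any of the 5 scalings. Rps27l in both genotypes, Rpl22 in fl/fl livers and Rpl38 in PparaΔHep livers were called lower under each scaling.

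**Figure D5:**
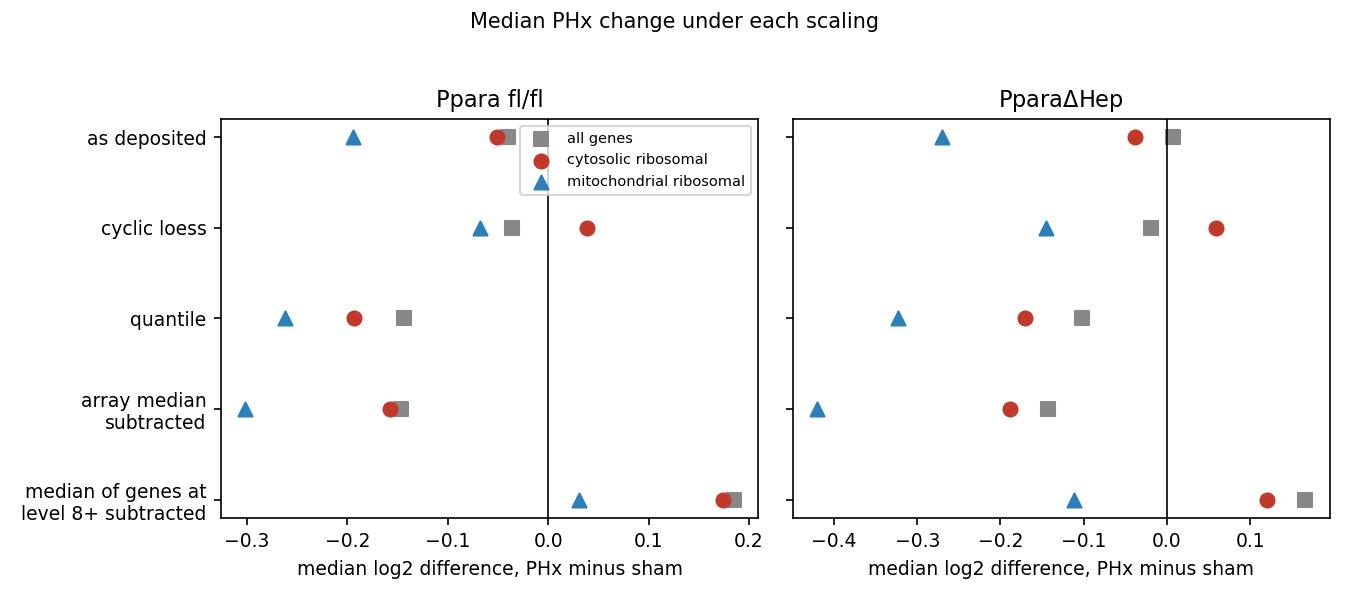
Median log2 difference between PHx and sham under 5 scalings of the arrays, for all genes (squares), cytosolic ribosomal protein genes (circles) and mitochondrial ribosomal protein genes (triangles), in Ppara fl/fl (left) and PparaΔHep livers (right), on axes of different range. The circles stay within 0.08 of the squares throughout while both move across 0, and the triangles lie below the squares in every setting. Array-median and high-level scaling subtract a constant from each array, so the distances between symbols equal those as deposited by construction.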

How the data were processed

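The authors deposited log2 values per probe set for 16 arrays. The submitters' processing notes name RMA, a method of background correction, normalization between arrays and probe summary. Neither a version nor a build is stated in the sources used here. Of 72688 probe sets, 30604 carry 1 symbol in the platform annotation. Symbols were updated through Entrez identifiers (827 changed). The probe set with the highest mean represented each of the 355 genes with several, leaving 30142 genes. Probes can cross-hybridise with copies of these genes, and low values understate differences.

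A single model with a mean for each group was fitted with limma 3.58.1 (R 4.3.3; lmFit, eBayes; 12 residual degrees of freedom), with Benjamini-Hochberg adjustment over the 30142 genes, and the procedure was tested on simulated data. Members' values are given for the 5 largest called rises and falls per PHx comparison and the 3 smallest p per other comparison. Those of paralogs with their parents, and of Rplp0, Rpsa and Rps4x, are given too. From each other list the 2 genes per direction with the smallest adjusted p were picked, and only a part of these is described. Left out are Eif3d, Eif3l, Nhp2, Nat10, Cd3eap, Ttf1, Mycn, Rps6kb2, Mrps31, Mrpl57 and Mrpl2. Rps29 and Rpl35, and the repeat values of Larp1, Pdcd4, Eif3k and Bop1 in the other genotype, were added after their values were seen. Members, lists and tests were chosen with earlier results of these data known. Alternatives changed scaling, filters, probe set choice, the variance model and the arrays used.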

Additional observations from a re-analysis of the deposited data

Results flagged for a closer look

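Over 84 groups of 4 arrays from 20 named members and the mean of all members, 4 held an array that stood apart from the rest by Dixon's test, and chance alone gives about 5% of groups. Rpl10a read 7.07 on PHx PparaΔHep array 3 against 6.79 to 6.82 on the other arrays of its group. Rpl10l read 3.63 on sham fl/fl array 4 against 3.26 to 3.30. Rpl22 read 4.59 on PHx fl/fl array 2 against 4.75 to 4.76. Rpl7l1 read 5.66 on PHx PparaΔHep array 4 against 6.16 to 6.25.

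Probe sets that did not represent their gene also passed after PHx. The second probe set of Rpl27 had log2 differences of 0.22 in fl/fl and 0.17 in PparaΔHep livers. That of Rpl41, on the chromosome of the gene, had 0.19 in fl/fl livers, where the brighter probe set on another chromosome had -0.01.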

How the results depend on the processing

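No paired analysis was possible because the replicate numbers were given in the order of the samples and the labels share no number between groups. In fl/fl livers members were called 7 higher after cyclic loess (median 0.039), 1 higher and 22 lower after quantile normalization (median -0.19), 1 and 13 after array medians were subtracted (median -0.16), and 19 and 2 after the median of genes at level 8 or more was subtracted (median 0.17). In PparaΔHep livers the counts were 5 and 2 (median 0.059), 0 and 18 (median -0.17), 0 and 18 (median -0.19), and 13 and 2 (median 0.12). The counts of all genes under these scalings moved too and are given above. Among members with a mean level of at least 5, an alternative chosen after seeing the data, 3 were lower in fl/fl livers. In PparaΔHep livers a trended and robust variance left 1 higher and 3 lower, and array weights left 3 lower. The median difference between the PHx changes was -0.073 with the median of genes at level 8 or more subtracted. Leaving out single arrays gave 0 to 3 higher and 2 to 8 lower in PparaΔHep livers.

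Signs turned as follows, for genes that were not called on the deposited scaling unless stated. Quantile normalization gave, in fl/fl livers, Rpl22l1 -0.11, Rpl39l -0.020, Rpl7a -0.060 and Rpsa -0.20, and in PparaΔHep livers Rpl10l -0.067, Rpl22l1 -0.020, Rpl3l -0.089 and the called Rpl7a -0.0079. Subtracted array medians gave Rpl22l1 -0.096, Rpl39l -0.026 and Rpsa -0.098 in fl/fl, and Rpl10l -0.035, Rpl22l1 -0.037, Rpl3l -0.095 and Rps9 -0.12 in PparaΔHep livers. Cyclic loess gave Rpl7l1 0.065, Rplp0 0.065, Rps15 0.029 and Rps4x 0.020 in fl/fl, and Rpl3l -0.036, Rplp0 0.015, Rps4x 0.094 and Rpsa 0.060 in PparaΔHep livers. The median of genes at level 8 or more, subtracted, gave Rpl3l 0.099, Rpl7l1 0.15, Rplp0 0.19, Rps15 0.12 and Rps4x 0.11 in fl/fl, and the called Rpl22 0.0089, Rplp0 0.063, Rps4x 0.085 and Rpsa 0.083 in PparaΔHep livers. The probe set on the gene's own chromosome, chosen after seeing the data, gave Rpl7a -0.031 in fl/fl and -0.014 in PparaΔHep livers. Over single arrays left out, Rpl22l1 ran from -0.12 to 0.095, Rpsa from -0.024 to 0.047 and Rplp0 from -0.068 to 0.0072 in fl/fl, and Rps4x from -0.17 to 0.0032 and Rps9 from -0.0017 to 0.086 in PparaΔHep livers. Apart from the scalings' shift of all genes, the cause was not tested. Dim probe sets such as Rpl39l and Rpl3l, near the negative controls, limit what a difference can show.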
